A study of Mus musculus with 5 samples.

Results

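The genes described here are 4 membrane-bound mucins, Muc1, Muc4, Muc13 and Muc20, taken by their symbols from the 32285 genes listed in each library. UMIs, unique molecular identifiers that count captured messenger RNA molecules, were read for them in single cells of mouse intestine. The duodenum, the jejunum, the ileum, the colon and the rectum had 1 library each, made in droplets on the 10x Genomics platform. Each segment is therefore 1 sample: levels of segments were compared by value without a test. Tests were made between cell classes, with the 5 libraries as replicates. Terms for a difference of these contrasts between small and large intestine, added after the data were seen, were also tested. They treat the different segments of a side as replicates, which they are not. Per the labels, the suspensions were sorted for cells that exclude propidium iodide, a stain of dead cells, so that epithelium, mesenchyme and immune cells are all present. Strain, age, treatment and the number of animals behind each library are not given in the sources used here, so a p-value speaks only of the spread from library to library, which includes the differences between segments. The study's title concerns stromal cells that express Gnai1 and how they act on goblet and Paneth cells.

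Membrane-bound mucins are glycoproteins that cross the plasma membrane and carry a long extracellular domain dense in O-linked sugars. On intestinal epithelium they form the glycocalyx at the apical surface, beneath the mucus gel of secreted mucins such as Muc2, and several are cleaved and shed by surface proteases. MUC13 and MUC4 have EGF-like domains, MUC4 is known as a partner of the receptor ERBB2, MUC20 as a partner of the receptor MET, and the cytoplasmic tail of MUC1 as a partner of beta-catenin and SRC. Enterocytes are known for a thick glycocalyx over their microvilli, whereas goblet cells make and release the secreted gel.

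All 4 genes were found in RefSeq, with coordinates given here on GRCm38.p6 (mm10). Muc1 (ENSMUSG00000042784) lies on chromosome 3 at 89229056 to 89233381 on the plus strand. Muc4 (ENSMUSG00000079620; chromosome 16, 32735886 to 32782391, plus strand) and Muc20 (ENSMUSG00000035638; chromosome 16, 32777419 to 32797435, minus strand) overlap by 4973 bases at their 3′ ends. Muc13 (ENSMUSG00000022824) lies further along chromosome 16, at 33794037 to 33819929 on the plus strand. The sources used here do not say whether reads were assigned by strand, and without strand the reads of the shared Muc4 and Muc20 stretch cannot be told apart. The start-site windows of Muc4 and Muc13, whose levels run in opposite directions from crypt to absorptive cells below, are shown because the results turn on these genes; each holds 250 bases before and 50 bases from an annotated start, 5′ to 3′ on the gene's strand, from RefSeq. Capitals mark matches, on either strand, to TATAAA, the core of a TATA box, and to GGTCAAAGG, letters of a nuclear receptor repeat that were searched after the sequences had been read.
Muc4 window, chr16:32735636-32735935, plus strand: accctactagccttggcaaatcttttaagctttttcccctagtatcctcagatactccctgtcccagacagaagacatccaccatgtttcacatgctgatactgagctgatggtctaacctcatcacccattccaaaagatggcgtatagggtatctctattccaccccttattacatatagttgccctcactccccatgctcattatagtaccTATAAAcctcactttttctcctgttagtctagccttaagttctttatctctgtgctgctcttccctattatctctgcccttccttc
Muc13 window at its downstream start, chr16:33794239-33794538, plus strand: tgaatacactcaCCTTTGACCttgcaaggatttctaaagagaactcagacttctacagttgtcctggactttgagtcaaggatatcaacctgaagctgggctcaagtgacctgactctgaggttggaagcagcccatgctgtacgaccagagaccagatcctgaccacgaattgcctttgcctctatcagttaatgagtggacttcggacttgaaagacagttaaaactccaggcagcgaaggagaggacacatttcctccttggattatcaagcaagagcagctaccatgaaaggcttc
TATAAA begins 36 bases before the start in Muc4 and 31 bases before it in Muc1, and 13.6% of the 32851 windows in the table held it. GGTCAAAGG was found as its reverse complement CCTTTGACC, 238 bases before the downstream Muc13 start, and 0.344% of windows held it. The upstream Muc13 window and the Muc20 window held neither, which says only that these letters are not in them, and a match is no evidence of binding.

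After filters, 11922 cells were left, of which 4884 were epithelial with a median of 31631.5 UMIs per cell. The libraries held 41953568 to 65546664 UMIs as deposited, and 14 of 11908 barcodes kept occurred in more than 1 library. Epithelial cells were classed by marker sums: 2231 absorptive, 1320 crypt (stem and dividing), 941 goblet, 109 enteroendocrine, 40 Paneth and 28 tuft cells, with 215 left ungated. All 12 goblet markers, all 17 crypt markers and all 24 absorptive markers were detected in at least 10% of the cells of their own class, and none of the 14 immune markers was in any of these 3 classes. The classes are ranges of a score: 263 of 3766 absorptive, crypt and ungated cells lay near the limit between crypt and absorptive, most often in colon (13.5%) and rectum (15.8%), and the median sum of large intestinal absorptive markers in goblet cells was 37.5 per 10000 UMIs. Median mitochondrial shares were 13.0% in absorptive, 9.24% in crypt and 7.51% in goblet cells. Levels are CPM, the UMIs of a gene per 1000000 UMIs summed over the cells of a class in a library, and intervals are exact 95% Poisson intervals, which cover counting error only. What a count of 0 allows is given as the level of 3 UMIs, somewhat below the upper end of that interval. For ileal goblet cells these are 0.43 and 0.53 CPM. In all values by segment the order is duodenum, jejunum, ileum, colon, rectum.

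Muc13 was the abundant member, with 133318 UMIs, of which 61.8% were in absorptive cells, a class that held 30.1% of all UMIs. In absorptive cells it stood at 1329, 1680.0, 1050.3, 777 and 1589.9 CPM. Jejunum was highest and colon lowest, 2.16-fold apart, and the small and large intestine overlapped. In goblet cells the levels were 1227, 1042, 847, 601 and 1209.7 CPM, below absorptive cells in each library. In crypt cells they were 312, 424, 320, 232 and 719 CPM, the lowest of the 3 classes in each library. Enteroendocrine cells, the hormone-secreting class, held 402, 353, 440.1, 364 and 693 CPM, near or above crypt cells but from 6 to 48 cells a library. Tuft cells, a chemosensory class, had 505 CPM over all libraries (interval 440.4 to 577) and Paneth cells, which secrete antimicrobial peptides at the crypt base, 231 CPM (215 to 249). The 9 Paneth markers alone stood at 671116 CPM in Paneth cells, which lowers the CPM of each other gene there. The Paneth level is therefore not comparable with those of the other classes. Immune cells, which should lack the gene, had 6.06 to 15.02 CPM. After each cell was thinned to 1000 UMIs, 70.2% of absorptive, 55.3% of goblet, 30.4% of crypt and 1.36% of immune cells had a Muc13 UMI; unthinned, the shares were 97.1%, 93.5%, 93.7% and 7.11%, at median depths of 31252, 27571, 36787 and 3797 UMIs.

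**Figure D1:**
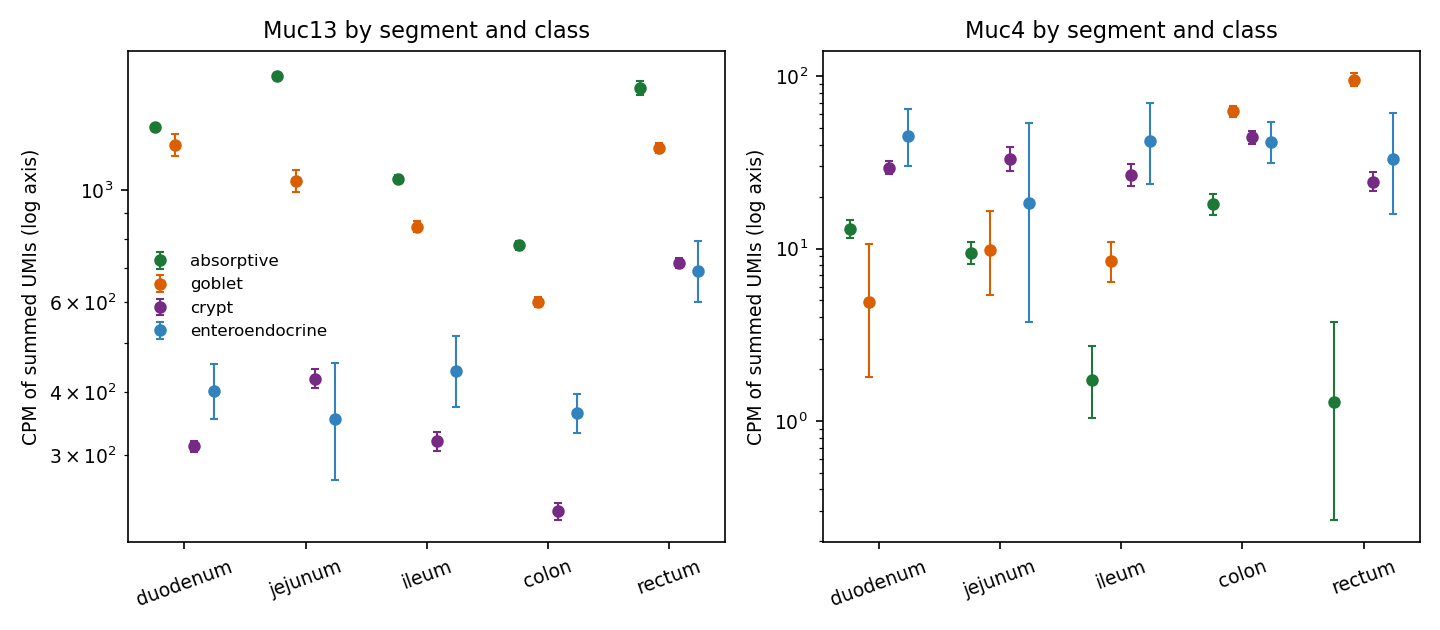
Levels of Muc13 (left) and Muc4 (right) in CPM of summed UMIs on log axes, by segment and epithelial class; points are 1 library each and bars are exact 95% Poisson intervals. Muc13 is highest in absorptive cells and lowest or near lowest in crypt cells throughout, whereas Muc4 in goblet cells lies at 4.90 to 9.85 CPM in small intestine and at 62.5 and 95.5 CPM in colon and rectum.

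The 3 classes were compared with the edgeR quasi-likelihood test on UMI sums, with library as a term and Benjamini-Hochberg adjustment over 12190 genes. Muc4 and Muc13 passed the filter on low counts; Muc1 and Muc20 did not. Muc13 was lower in crypt than in absorptive cells by edgeR, with a log2 difference of -2.22 (SE 0.20, adjusted p = 6.1e-06), lower in 5 of 5 libraries; 36.1% of all genes were lower by this test, 29.9% were higher, and 66.0% passed in either direction. It was higher in goblet than in crypt cells, by a log2 difference of 1.57 (SE 0.20, edgeR adjusted p = 0.00033), again in 5 of 5 libraries, where 18.1% of genes were higher and 16.1% lower. Between goblet and absorptive cells the log2 difference was -0.64 (SE 0.19, edgeR adjusted p = 0.015), lower in 5 of 5 libraries, against 29.2% of genes lower, 27.3% higher and 56.5% in either direction. This last call was lost without jejunum (-0.52, adjusted p = 0.076), without a library term (-0.65, adjusted p = 0.11), with library totals in place of TMM factors (-0.37, adjusted p = 0.059), and in cells with at most 10% mitochondrial UMIs, where the log2 difference was -0.01 (adjusted p = 0.97) and 442 of 2231 absorptive cells were left. The other Muc13 calls held at the 10% limit, with log2 differences of -1.72 for crypt against absorptive and 1.71 for goblet against crypt. Against library totals, TMM factors moved the median gene by -0.27 for goblet against absorptive, -0.50 for crypt against absorptive and 0.23 for goblet against crypt on the log2 scale, and all log2 differences given here are relative to that shift. Of all called genes, 48.4%, 45.3% and 53.0% were higher in the first class of these contrasts, against 65.2%, 68.6% and 32.1% with library totals. Terms for a difference between small and large intestine, added after the data were seen, did not pass for Muc13 by edgeR: 0.74 for crypt against absorptive (adjusted p = 0.13), -0.75 for goblet against crypt (adjusted p = 0.37) and -0.01 for goblet against absorptive (adjusted p = 0.995).

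Absorptive, crypt and ungated cells of each library were also ordered by the ratio of absorptive to crypt markers and split into quintiles, a division made after the data were seen. Muc13 was higher in each later quintile in each library: duodenum went from 254 to 1671 CPM, jejunum from 456 to 1851, ileum from 311 to 1399.5, colon from 219.8 to 1075 and rectum from 686 to 1619. The last quintile was 6.57, 4.06, 4.50, 4.89 and 2.36 times the first. In cells with at most 10% mitochondrial UMIs it was 5.43, 4.22, 4.91, 1.78 and 1.77 times the first. The size of the rise in colon thus depended on this filter. The filter left 24 of 320 absorptive cells in colon, beside 148 crypt and 12 ungated ones. In rectum the filter left 24 of 121, beside 245 and 56. The last quintile could then not hold absorptive cells alone in colon or rectum. Rectum had the flattest course and the highest first quintile. Muc3, the gene of a large membrane mucin of enterocytes, stood at 1369.9 CPM in the rectal crypt class, against 50.5 to 69.1 CPM in the crypt cells of the other segments. Along the villus of the small intestine, absorptive cells in tertiles from bottom to tip by zonation genes had Muc13 at 881, 1500 and 1754 CPM in duodenum, 1376, 1827 and 1882 CPM in jejunum, and 761.8, 1021 and 1546 CPM in ileum. The tip tertile was 1.99, 1.37 and 2.03 times the bottom one, in the cells with at most 10% mitochondrial UMIs 2.83, 2.66 and 2.16 times, and with each deposited barcode 1.41, 1.16 and 1.91 times.

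**Figure D2:**
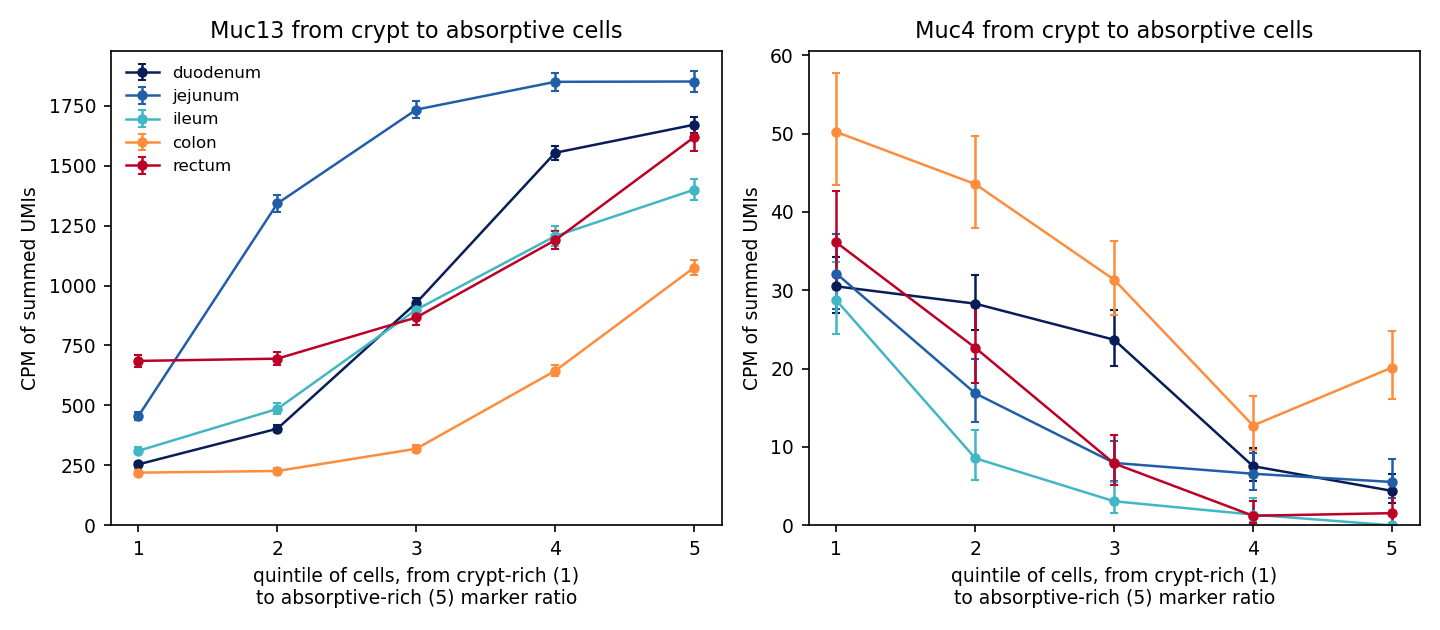
Muc13 (left) and Muc4 (right) in CPM of summed UMIs (linear axes from 0) over quintiles of cells ordered from crypt-rich to absorptive-rich marker ratio, 1 line per segment; bars are exact 95% Poisson intervals. Muc13 ends higher than it begins in each segment, at 1075 to 1851 CPM, and Muc4 ends lower than it begins, with colon highest at 20.1 CPM in the last quintile.

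Muc4 had 3862 UMIs, 41.4% in crypt, 35.0% in goblet and 17.1% in absorptive cells. In crypt cells it stood at 29.4, 33.2, 26.8, 44.3 and 24.4 CPM, a 1.81-fold range with colon highest. In absorptive cells it was at 13.0, 9.44, 1.73, 18.1 and 1.29 CPM, the last from 3 UMIs, and ileum and rectum lay below the other segments. In enteroendocrine cells it was at 44.8, 18.3, 42.3, 41.6 and 33.0 CPM, and the intervals of all 5 libraries overlapped. By Leiden cluster, 21 of the 48 colonic cells of this class fell with enteroendocrine cells, 13 with crypt cells and 12 with goblet cells. Immune cells had 11 UMIs in 6106 cells, at most 0.89 CPM in a library. Paneth cells had 2 UMIs in 40 cells.

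In goblet cells Muc4 differed widely by segment, at 4.90, 9.85, 8.41, 62.5 and 95.5 CPM, from 6, 14, 59, 761 and 512 UMIs, a 19.5-fold range. The 3 small intestinal libraries had intervals of 1.80 to 10.7, 5.38 to 16.5 and 6.40 to 10.9 CPM, which overlapped, and the 2 large intestinal ones of 58.2 to 67.1 and 87.4 to 104.0 CPM, which did not overlap with these or with each other. By a rule of size, the lowest large intestinal goblet level was 6.35 times the highest small intestinal one, and 3.08% of 11243 genes had a gap of at least 2-fold in that direction and 2.32% in the other. The gap was between 6.10-fold and 7.21-fold in the other cell sets and scalings tried. No such gap was present for Muc4 in absorptive or crypt cells, or for Muc13 in any of the 3 classes. Among all genes, such gaps were as common as 6.36% (small intestine higher) and 7.78% (large intestine higher) in absorptive cells and 2.57% and 3.43% in crypt cells.

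Within a library, goblet cells held less Muc4 than crypt cells in duodenum, jejunum and ileum (log2 ratios of CPM of -2.58, -1.75 and -1.67) and more in colon and rectum (0.50 and 1.97). Over the 5 libraries together the log2 difference was 0.01 (SE 0.74, edgeR adjusted p = 0.995), and its sign changed with the scaling, at -0.23 with library totals. The difference between small and large intestine in this contrast, added to the model after these values were seen, was 2.81 on the log2 scale (SE 0.96, unadjusted p = 0.015, edgeR adjusted p = 0.26) and did not pass; 1.11% of genes did. Against absorptive cells the goblet log2 difference was 1.43 (SE 0.76, edgeR adjusted p = 0.13) and higher in 4 of 5 libraries, with duodenum the other way. Without rectum it was 0.61 (edgeR adjusted p = 0.38). That contrast differed between small and large intestine by 2.65 (SE 1.05, edgeR adjusted p = 0.12), where 13.8% of genes passed. Crypt cells held more Muc4 than absorptive cells in 5 of 5 libraries, with a log2 difference of 1.43 (SE 0.69, edgeR adjusted p = 0.088). The term for small against large intestine in this contrast was -0.15 (edgeR adjusted p = 0.94), and 16.5% of genes passed. The crypt against absorptive difference passed without rectum (adjusted p = 0.034), with library totals (1.98, adjusted p = 0.025) and in DESeq2 (1.64, adjusted p = 0.035). It was smaller without ileum (0.99, edgeR adjusted p = 0.28) and at the limit of 10% mitochondrial UMIs (1.09, edgeR adjusted p = 0.24).

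**Figure D3:**
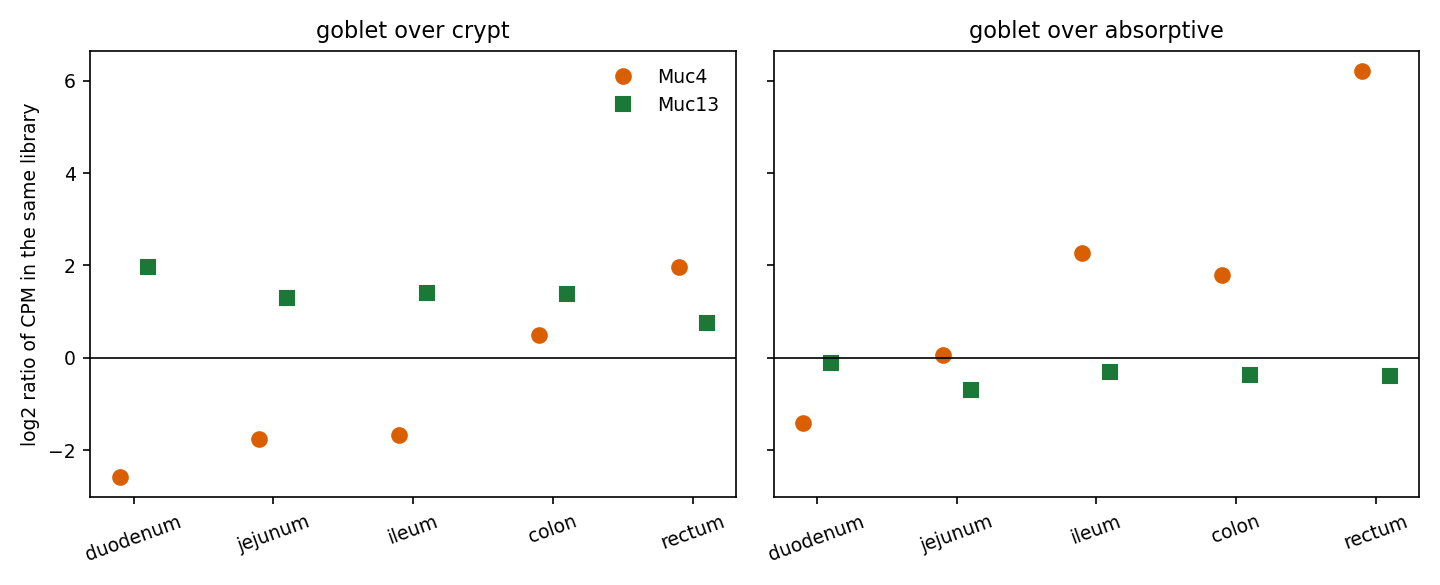
Log2 ratio of CPM between classes of the same library for Muc4 (circles) and Muc13 (squares), goblet over crypt cells (left) and goblet over absorptive cells (right), 1 point per library. Muc4 lies below 0 in the 3 small intestinal libraries and above 0 in the 2 large intestinal ones against crypt cells, while Muc13 lies on 1 side of 0 in each panel.

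Over the quintiles from crypt to absorptive, Muc4 went from 30.5 to 4.401 CPM in duodenum, from 32.1 to 5.53 in jejunum, from 50.2 to 20.1 in colon and from 36.1 to 1.55 in rectum, the last from 3 UMIs. In ileum it went from 28.7 CPM to 0 of 2636601 UMIs, which allows up to 1.14 CPM. Colon differed in course, with 12.7 CPM in quintile 4 and 20.1 CPM in quintile 5. Along the villus, Muc4 was at 21.6, 10.6 and 3.78 CPM from bottom to tip in duodenum and at 15.9, 8.76 and 2.61 CPM in jejunum, the reverse of Muc13 in the same cells, while the ileal tertiles held 8, 9 and 2 UMIs. In cells with at most 10% mitochondrial UMIs, of which duodenum and jejunum had 63 and 48 absorptive cells, absorptive Muc4 was 26.3 and 23.3 CPM there. Its last quintile then stood at 28.0 and 26.8 CPM in these segments, against 30.6 and 29.1 CPM in the first.

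RNA of goblet cells in other cells was gauged by Muc2, within a limit set by the gate. Muc2 is itself a goblet marker, and cells with a high sum of goblet markers were classed as goblet. The gate thus holds down the Muc2 shares of absorptive and crypt cells. Low shares there are no independent measure of goblet RNA, and the values below are given as a description. Colonic absorptive cells held Muc2 at 0.815% and colonic crypt cells at 0.713% of the goblet level; these shares of the goblet Muc4 level come to 0.51 and 0.45 CPM, against 18.1 and 44.3 CPM measured. In rectal absorptive cells the share comes to 0.36 of the 1.29 CPM measured, the latter from 3 UMIs. In colonic enteroendocrine cells Muc2 was at 19.7% of the goblet level, which comes to 12.3 of the 41.6 CPM of Muc4.

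The goblet cells of colon and rectum fell into Leiden clusters made without the 4 mucins, and their levels are given as a description. The leading genes of a cluster were ranked by fold over all other goblet cells of all segments. They can therefore mark the segment as well as the cluster. In colon, 224 goblet cells of a cluster led by Car1 and Cyp2c55 had Muc4 at 52.6 CPM, Muc13 at 544 CPM and Muc20 at 0.90 CPM. The 122 cells of a cluster led by Plet1 and Nxpe2 had 87.8, 699 and 5.45 CPM of the same genes. In rectum, 147 cells of a cluster led by Hoxb13 and Cma1 had Muc4 at 107 CPM (97.2 to 117) and Muc1 at 1.65 CPM (0.67 to 3.41), whereas 76 cells of a cluster led by Spink1 and Saa1 had Muc4 at 54.2 CPM (41.2 to 70.1) and Muc1 at 13.1 CPM (7.15 to 22.0). The order of Muc4 and Muc1 was thus reversed between these rectal clusters of 1 library. The intervals did not overlap for either gene, but they cover counting error only, and the difference was not tested. The Muc1 levels rest on 7 UMIs in the Hoxb13 cluster and 14 in the Spink1 cluster, with up to 4 UMIs in 1 rectal goblet cell. Muc13 followed Muc1, at 1124 CPM in the Hoxb13 cluster and 1536 CPM in the Spink1 cluster. The 18 colonic goblet cells of the Spink1 cluster had Muc4 at 113.5 CPM (78.1 to 159), so its low rectal level was not shared by its colonic cells.

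Muc1 had 165 UMIs in all cells, 64.2% of them in immune cells and 21.8% in goblet cells. In goblet cells it was at 0 CPM in the 3 small intestinal libraries, at 1.23 CPM in colon from 15 UMIs in 12 cells and at 3.92 CPM in rectum from 21 UMIs in 14 cells, with up to 4 UMIs in 1 cell. The ileal 0, of 7012623 UMIs in 262 goblet cells, allows up to 0.43 CPM, whereas the duodenal and jejunal ones allow up to 2.45 and 2.11 CPM, so that a level as in colon, though not one as in rectum, was below detection there. Absorptive cells had 3 Muc1 UMIs in 2231 cells and crypt cells 13 in 1320, 8 of these in rectum. Immune cells had 1.68, 1.72, 2.84, 3.54 and 2.02 CPM, and when they were divided by markers after this was seen, the 481 cells with Cd3e, Cd3g and Trbc2, genes of the T cell receptor complex, had 11.7, 0, 10.2, 13.5 and 17.7 CPM from 27 UMIs. The jejunal 0 rests on 47 cells and allows up to 13.1 CPM. The 3763 cells with the B cell genes Cd79a, Cd79b and Ms4a1 had 1.91 CPM (1.33 to 2.65), below the 11.8 CPM (7.75 to 17.1) of the Cd3e group. Without a filter on low counts, Muc1 was higher in goblet than in absorptive cells by 2.78 on the log2 scale (SE 0.99, edgeR adjusted p = 0.045), a fitted value that rests on 39 UMIs, 3 of them absorptive.

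Muc20 was the rarest member, with 93 UMIs, 54.8% in immune cells and 32.3% in goblet cells. It had no UMI in 2231 absorptive cells, whose 63433367 UMIs allow up to 0.047 CPM. Goblet cells had 25 UMIs in 23 colonic cells (2.05 CPM, 1.33 to 3.03), 5 UMIs in rectum (0.93 CPM, 0.30 to 2.18) and 0 in the small intestine, where the ileal 0 allows up to 0.43 CPM and those of duodenum and jejunum lie above the colonic level in what they allow. Of the 51 immune UMIs, 29 were in the 417 cells with Mzb1 but not Ms4a1, the pattern of plasma cells, at 2.10 CPM (1.40 to 3.01), and the 3763 Ms4a1 cells had 0.49 CPM (0.22 to 0.93). The 617 immune cells in none of the marker groups had 8 UMIs (1.65 CPM, 0.71 to 3.25), 4 of them in colon (7.06 CPM, 1.92 to 18.1). All 23 colonic goblet cells with a Muc20 UMI also had a Muc4 UMI, as did 69.0% of all 365 colonic goblet cells, and their median depths were 31234 and 27430 UMIs. The 47 immune cells with Muc20 included 0 with Muc4, and absorptive cells had 662 Muc4 UMIs beside 0 of Muc20.

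**Figure D4:**
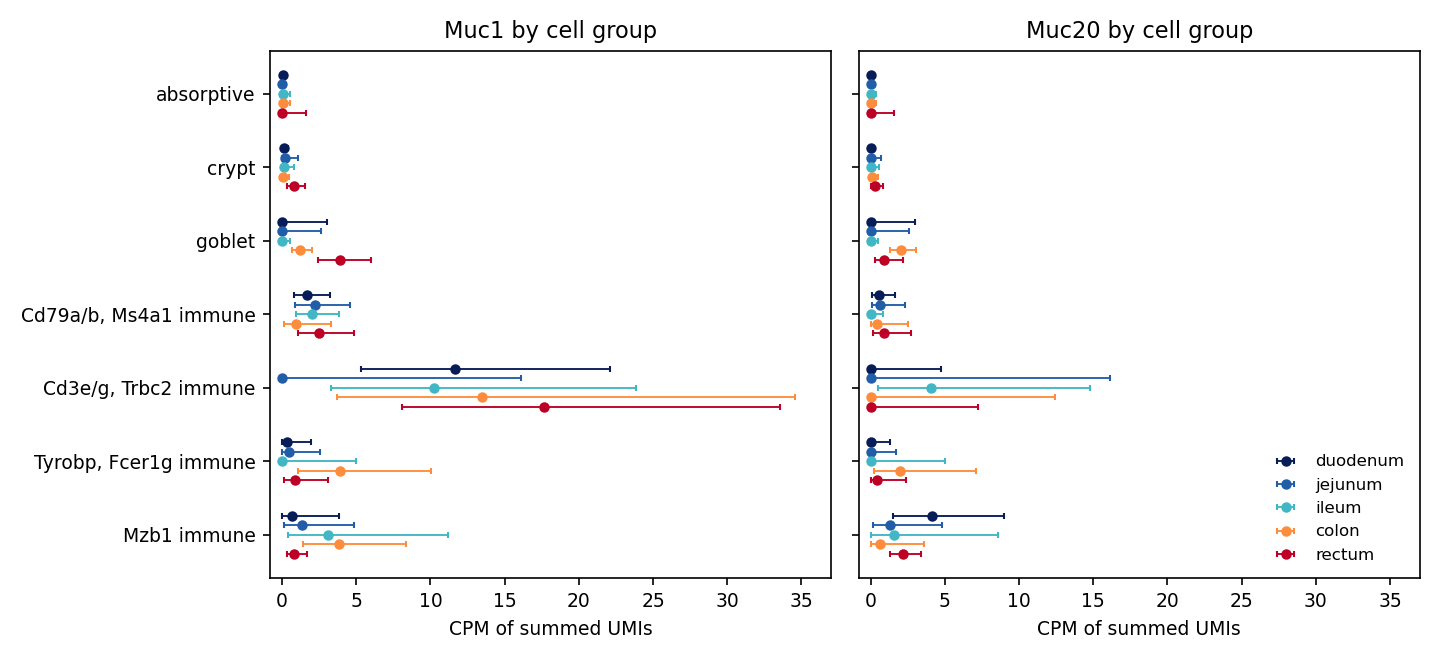
Muc1 (left) and Muc20 (right) in CPM of summed UMIs in 3 epithelial classes and in the 4 immune groups defined by marker genes, 1 point per library with exact 95% Poisson intervals. Muc1 is highest in the Cd3e, Cd3g and Trbc2 group, up to 17.7 CPM in rectum, and the highest plotted Muc20 level is 4.14 CPM; immune cells outside the 4 groups are not plotted.

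Likeness was measured as Pearson's r of log2(CPM + 5) over 18 pools of a class and a library with at least 20 cells, among genes with at least 500 epithelial UMIs. The pools of a library share depth and handling, and the values are descriptive. Muc13 was most like Il13ra1, a receptor chain for interleukin 13 (r = 0.906), followed by Mir22hg, Cx3cl1, Cxadr and Cd82 (0.895 to 0.885). Muc4 was most like Wdr59 (r = 0.878), followed by G6pc3, Fem1a, Zfp507 and Ppif. Muc1, with 53 epithelial UMIs, was most like Best2, a bestrophin channel gene (r = 0.983), followed by Sval1, Gcnt1, St6gal1 and Trim46. Muc1 stood at 1.23 and 3.92 CPM in colonic and rectal goblet cells and at most 0.79 CPM in the other pools. Its r values thus rest on few pools. Trim46 is the neighbour of Muc1 on the opposite strand, 787 bases beyond its 3′ end. Muc20, with 37 epithelial UMIs, was most like A4gnt, which caps mucin O-glycans (r = 0.943), followed by Slc9a3r2, Cmah, Ccn3 and B3gnt6. Of these 37 UMIs 25 were in colonic goblet cells, so the r values of Muc20 also rest on few pools. Among the members themselves Muc4 and Muc13 had r = -0.33, Muc1 and Muc4 0.57, Muc1 and Muc20 0.58, and Muc4 and Muc20 0.41.

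Genes around the members in their pathway were taken from 7 lists. Of 4 other membrane-anchored mucin-type glycoproteins that could be tested, Muc3 (-4.02), Cdhr2 (-2.80) and Cdhr5 (-1.97) were lower in goblet than in absorptive cells on the log2 scale in 5 of 5 libraries, and Muc3a was higher (2.48, in 4 of 5 libraries), a call that was lost without a library term. Cdhr2 and Cdhr5 are the protocadherins that link microvilli, and both are also on the brush border list. The list median was -2.39, against -0.01 over all genes, of which 29.2% were lower and 27.3% higher in goblet cells. This median lies between the values of Cdhr2 and Cdhr5. The mucins tested on the list, Muc3 and Muc3a, went opposite ways, so it gives no common direction for mucins. In crypt cells 3 of the 4 were lower than in absorptive cells, where 36.1% of all genes were, and none was higher. Of the 22 enzymes of mucin-type O-glycosylation, 21 were tested, and 18 were higher in goblet than in crypt cells, where 18.1% of all genes were, with none lower and a median of 2.66. Galnt5 (5.86) and Galnt12 (3.42), which attach the first sugar, Gcnt3 (5.77), which branches it, and St3gal1 (4.16), which caps it with sialic acid, were higher in 5 of 5 libraries; without a library term 11 of the 21 were called. Against absorptive cells 11 were higher in goblet cells and 2 lower, beside 27.3% and 29.2% of all genes. In crypt cells 10 of 21 were lower than in absorptive cells and 0 higher, beside 36.1% and 29.9% of all genes, though 3 were higher with library totals and 2 in DESeq2; St3gal4 (-3.91) and B3gnt6 (-4.30) led the lower ones.

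Among the receptors, Erbb2 and Erbb3 were lower than in absorptive cells both in goblet cells (-1.66 and -1.26 on the log2 scale) and in crypt cells (-1.50 and -1.56), each in 5 of 5 libraries. Egfr was higher in crypt than in absorptive cells (0.75, edgeR adjusted p = 0.034, 5 of 5 libraries), where 29.9% of all genes were. The Egfr call was lost at the limit of 10% mitochondrial UMIs, where 0 of the 4 receptors were higher in crypt cells. Met was lower in goblet than in absorptive cells (-0.61, edgeR adjusted p = 0.042) but in 3 of 5 libraries by CPM. In this last contrast 3 of the 4 receptors were lower, beside 29.2% of all genes, and 2 were with library totals and in DESeq2. None of the 4 receptors passed between goblet and crypt cells, where 34.2% of genes did. Of the sheddases, Mmp14 was higher than in absorptive cells in goblet (2.90) and in crypt cells (1.96). Adam9 was higher in goblet than in crypt cells (1.03), where 18.1% of all genes were. Adam9 was also lower in crypt than in absorptive cells (-0.60, edgeR adjusted p = 0.0087), in 3 of 5 libraries by CPM, beside 36.1% of all genes. That lower call was lost with library totals. Adam10 and Adam17, the main shedding proteases of many surface proteins, passed in none of the 3 contrasts. In goblet against absorptive cells 1 of the 4 sheddases was higher, beside 27.3% of all genes. With library totals 3 of the 4 were. Under that scaling 6889 of 12190 genes were called in either direction, and 65.2% of those called were higher. Of 10 cytoplasmic partners and apical anchors, 7 were lower in goblet and 7 in crypt than in absorptive cells, against 29.2% and 36.1% of all genes; with library totals 6 and 5 were. They included Pdzk1 (-5.52 and -8.59), Slc9a3r1 (-2.84 and -3.41) and Ezr (-1.52 and -2.10), which tie membrane proteins to the apical actin cortex, and Lgals3 (-3.07 and -3.22), a lectin that binds mucin sugars. Of the same list, Gipc1 was higher in crypt than in absorptive cells (0.68, edgeR adjusted p = 0.025, 5 of 5 libraries), where 29.9% of all genes were. The Gipc1 call was lost without a library term. At the limit of 10% mitochondrial UMIs 7 genes of the list were tested, and 0 were higher in crypt cells. All 10 brush border genes were lower in goblet and in crypt cells than in absorptive cells, beside 29.2% and 36.1% of all genes, Cdhr2 and Cdhr5 again among them, and Vil1, which also served as an epithelial marker. Espn (-3.25 and -4.68) and Pls1 (-2.54 and -3.50), which bundle microvillus actin, showed this in 5 of 5 libraries. The list of secreted mucins had 1 testable gene, Muc2, itself a goblet marker of the gate, from which nothing is read.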

How the data were processed

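Single-cell UMI counts were deposited for 5 libraries as raw whole-number counts per gene and barcode, per the file headers, which name cellranger 7.2.0. Per the submitters' processing notes the tools were Cell Ranger 4.0.0 and Seurat, on mm10. The spatial libraries of the design text were not analysed here. A barcode was kept from 300 genes upward if its mitochondrial share was 20% or less, and the highest Scrublet scores (scanpy 1.11.5) were removed at 0.8% per 1000 barcodes, 333 in all; the automatic Scrublet threshold marked 20. This left 12255 and then 11922 of 16535 barcodes.

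Cells were classed by summed marker UMIs per 10000, without the members: epithelial at 80% or more epithelial UMIs over immune and stromal ones, goblet at 100 or more with at least 4 markers, and absorptive or crypt by the ratio of the respective sums (10 or more, 5 or less). Leiden clusters (resolution 2, igraph 0.11.9) served as an alternative. Each class of each library was pooled and expressed as CPM. Classes with at least 10 cells in a library were tested with edgeR 4.0.16 (quasi-likelihood, TMM, filterByExpr, library as a term, Benjamini-Hochberg at 0.05), after a test on simulated data. Levels of a class in small and large intestine were compared by size alone, with at least 50 UMIs and counts of 0 set to 3. Poisson and Clopper-Pearson intervals are at 95%.

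The members, gene lists and rules were chosen with earlier results of these data known. Genes named from a list were up to 4 per contrast past the threshold and in the same direction in each library, by size. Other list genes named, as Muc3a, Met, Gipc1, Adam10 and Adam17, were chosen after their values were seen. Alternatives were other cell filters, Leiden classes, DESeq2 1.42.0, no filter on low counts, no library term, TMM-scaled CPM, a 4-fold gap, a minimum of 200 UMIs, thinning to 2000 UMIs and leaving out each library. Added after the data were seen were library totals without TMM factors, the term for small against large intestine, the quintiles and the immune groups.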

Additional observations from a re-analysis of the deposited data

Results flagged for a closer look

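Muc4 in goblet against crypt cells pointed one way in each small intestinal library and the other way in each large intestinal one. The log2 ratios of CPM were -2.58 in duodenum, -1.75 in jejunum, -1.67 in ileum, 0.50 in colon and 1.97 in rectum. The term for this difference in the edgeR model was 2.81 on the log2 scale (SE 0.96) with an unadjusted p = 0.015 and an adjusted p = 0.26 over 12190 genes, so it did not pass. The small intestinal goblet values rest on 46, 34 and 262 cells with 6, 14 and 59 Muc4 UMIs.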

How the results depend on the processing

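Of the alternative counts of genes called, 60 stayed within 1.5 times of the value as reported and 6 did not. Between goblet and crypt cells, 4164 genes were called, and 2478 to 4143 when a library was left out, lowest without duodenum and 2516 without ileum. Genes with a gap between small and large intestine in absorptive cells numbered 1609, and 563 at the limit of 10% mitochondrial UMIs; at a 4-fold gap they were 712 in absorptive, 298 in crypt and 240 in goblet cells, against 1609, 720 and 607. The log2 difference of Muc4 between goblet and crypt cells was 0.01 and became -0.029 without a filter on barcodes, -0.059 at a limit of 10% mitochondrial UMIs, -0.19 in DESeq2, -0.048 without a filter on low counts and -0.23 with library totals; leaving out a library gave -0.82 (rectum) to 0.40 (ileum), with -0.21 without colon, and none of these passed. Both Muc13 contrasts with crypt cells kept their direction and stayed past the threshold under each alternative, whereas goblet against absorptive cells came to -0.015 (SE 0.22) at the limit of 10% mitochondrial UMIs. Of the alternative CPM values by segment and class, 459 lay within the counting interval of the value as reported and 97 outside it. Between segments, no paired analysis was possible because each has 1 library; the class contrasts were already paired by the library term, and without it 5860 genes were called for goblet against absorptive, 6989 for crypt against absorptive and 2859 for goblet against crypt, against 6884, 8041 and 4164. Depth limits Muc1 and Muc20: with 53 and 37 epithelial UMIs, neither could be compared between classes with the filter in place. Muc4 levels in duodenal and jejunal goblet cells rest on 20 UMIs.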

Other observations

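Muc16, a further membrane-bound mucin, had UMIs in colon and in no other library among absorptive, crypt, goblet and enteroendocrine cells. Colonic absorptive cells had 63 UMIs (5.87 CPM, 4.51 to 7.51), crypt cells 60 (5.38 CPM, 4.10 to 6.92), goblet cells 39 (3.21 CPM, 2.28 to 4.38) and enteroendocrine cells 11 (8.03 CPM, 4.01 to 14.4). Colonic immune cells had 0 of 5644412 UMIs, which allows up to 0.53 CPM, and rectal crypt cells 0 of 10153670, which allows up to 0.30 CPM.

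Muc3a had a segment order in goblet cells unlike that of Muc4, at 168, 154, 122, 116 and 17.0 CPM from duodenum to rectum, so that rectal goblet cells were highest in Muc4 and lowest in Muc3a. These are levels in 1 library each and were not tested.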
